A study of Mus musculus with 10 samples.

Results

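NADPH oxidases are enzymes that pass electrons from NADPH across a membrane to oxygen and so make superoxide or hydrogen peroxide. The catalytic subunit belongs to the NOX and DUOX family, and the NOX2, NOX1, NOX3 and NOX4 enzymes are stable in the membrane only as a heterodimer with the small protein p22phox, which Cyba encodes. NOX1 and NOX2 also need cytosolic organiser and activator proteins and a Rac GTPase, whereas NOX4 is active without them. The set described here is 9 of the 54343 genes in the expression table, taken by their symbols. They are Cyba, the catalytic subunit genes Cybb (NOX2), Nox1 and Nox4, the cytosolic subunit genes Ncf1 (p47phox), Ncf4 (p40phox) and Noxa1 (the activator of NOX1), and the GTPase genes Rac1 and Rac2. The set was chosen by the FPKM of Cyba, which differed between the 2 cell lines, so the members' differences between the lines are given as a description, with no test.

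The study compared 2 mouse tumour cell lines grown in the same medium, with 5 RNA sequencing libraries each. MC38 is the parental line, bought from a vendor and labelled wild type. MC38.T4 is labelled as having low mesothelin expression and is 1 clone. It goes back to a clone of MC38 transfected with a vector for human mesothelin, which was grown as a tumour in C57/BL6 mice, passaged in culture and cloned again. Every difference below is therefore between a parental population and a single transfected, tumour-passaged clone, and the effects of the transfection, the passage and the choice of the clone cannot be told apart. Nothing in the labels tells separate cultures of 1 line from repeat libraries of 1 culture. The p-values therefore cover the spread between these samples alone, and that spread may be technical.

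Expression is given in FPKM, fragments scaled to gene length and library total, so levels can be compared between genes. A difference is the MC38.T4 mean of log2(FPKM + 1) less the MC38 mean, a scale on which the change of low genes is understated. The spacing of low FPKM values placed the library totals between 33700000 and 44000000 fragments. Genes with at least 1 FPKM in at least 5 of the 10 libraries (11110 genes) were tested with limma. Calls were made where the adjusted p was below 0.05. They covered 86.0% of these genes (43.1% rises and 42.9% falls), so a call on its own did not set a gene apart, and the median log2 difference was 0.001. MC38 replicate 1 summed to the least FPKM, and MC38.T4 replicate 4 held the most genes between 0.02 and 0.5 FPKM (6331, against at most 5798 in the other libraries). The labels give the tissue as melanoma, while the protocol text calls MC38 a colon cancer line. Of 12 colon epithelial markers none passed the filter, and Cdx2, which specifies intestinal epithelium, was listed at 0 in all 10 libraries. Cdh1 came closest to passing, averaging 0.0212 FPKM for MC38 against 1.00 for MC38.T4, where 3 libraries reached 1 FPKM. With no overlap between the lines, Cdh1, Cdx1 and Krt8 were higher in MC38.T4 and Krt19 was lower. The 12 markers summed to between 0.101 and 0.179 FPKM for MC38, against 1.2 to 1.53 for MC38.T4. Of 7 melanocyte markers 1 passed (Mitf, which rose from 0.781 to 1.74 FPKM, limma adjusted p = 4.27e-08, tested only because its MC38.T4 libraries passed the filter). Pmel, below the filter, went the opposite way with no overlap between the lines, averaging 0.522 FPKM for MC38 against 0.178 for MC38.T4. Tyr was listed at 0 throughout, Tyrp1, Dct and Sox10 never exceeded 0.023 FPKM, and Mlana never exceeded 0.1118.

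Cyba carried the largest difference of the set. The sequence upstream of its start is shown because the transcript was present in every library of one line and nearly missing from the other. It is taken from RefSeq on build GRCm38.p6, chr8:122432941-122433190 on the minus strand, and holds the 250 bases before the annotated start. The authors' values rest on GRCm39, and none was placed by these coordinates. Capitals mark matches to the GC box GGGCGG, searched on both strands. No 2 matches overlap.

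Cyba: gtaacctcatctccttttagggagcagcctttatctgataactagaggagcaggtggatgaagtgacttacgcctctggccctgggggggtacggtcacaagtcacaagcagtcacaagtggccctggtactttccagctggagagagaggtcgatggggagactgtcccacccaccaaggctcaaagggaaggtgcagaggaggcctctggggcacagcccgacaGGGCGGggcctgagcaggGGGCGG

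The 2 GC boxes begin 24 and 6 bases before the start, and 32.7% of 32851 RefSeq promoter windows of this length hold at least 1. No TATAAA (in 12.4% of windows), CCAAT (33.8%), hypoxia core ACGTG (16.6%), AP-1 site TGACTCA or TGAGTCA (4.46%) or PU.1 site GAGGAAGT (2.44%) was found on either strand. The window holds 6 CpG dinucleotides, equal to the median of all windows, and 60.0% G and C against a median of 52.4%. Of the 9 members 6 had a promoter entry.

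In MC38 the FPKM of Cyba was 12.9658, 19.1251, 16.6321, 14.0450 and 17.3802 in replicates 1 to 5. In MC38.T4 it was listed at 0 in replicates 1, 2, 4 and 5 and at 0.0335 in replicate 3. Every MC38 library thus held Cyba above 10 times the minimum for testing, and no MC38.T4 library came near that minimum. The mean was 16.0 ± 2.5 FPKM (SD, n = 5) for MC38 against 0.0067 ± 0.015 FPKM (SD, n = 5) for MC38.T4, and the log2 difference was -4.07, the third most negative of the 11110 tested genes. Cyba entered the tested genes only through its MC38 libraries, so it had to differ. With a pseudocount of 0.1 in place of 1 the log2 difference was -7.24.

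At the 1039 exon bases that GENCODE vM21 gives for Cyba, 0.0335 FPKM would be 1.40 fragments, which is not whole, so no fragment numbers are given for Cyba. At that length a library listed at 0 allows up to 3 fragments, or between 0.0656 and 0.0857 FPKM over the MC38.T4 libraries at 0, an upper limit that covers counting error only. In RNA from a whole culture, fewer cells with a transcript and less of it per cell cannot be told apart.

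Cyba also varied more within MC38 than most genes of its level. Its coefficient of variation over the 5 MC38 libraries was 15.6%, against a median of 5.24% over 2590 genes whose MC38 mean lay within 1.5-fold of it, and 98.1% of those genes varied less. MC38 replicate 1 was the lowest library. Without it the mean of the other 4 was 16.8 ± 2.1 FPKM, with a coefficient of variation of 12.6%.

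**Figure D1:**
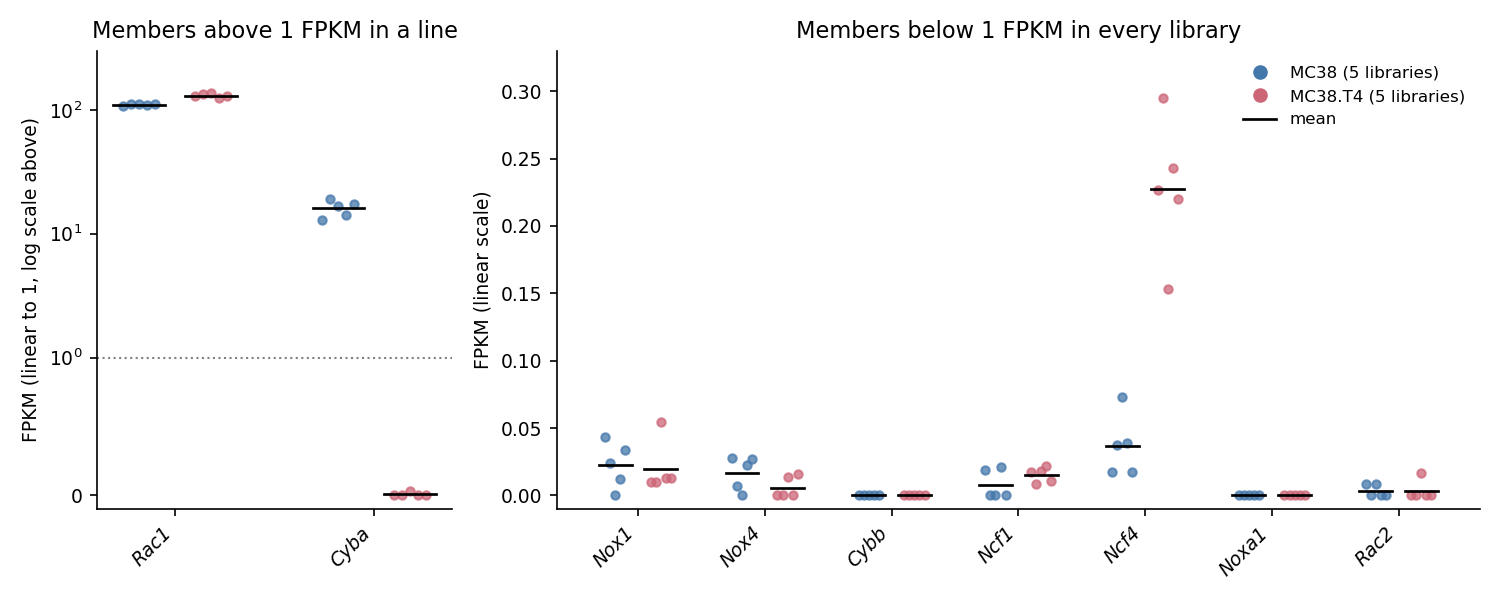
FPKM of the 9 members in each of 5 MC38 and 5 MC38.T4 libraries (points) with the mean of each line (bars). The left panel is linear up to 1 FPKM (dotted line) and logarithmic above it, and the right panel is linear. Rac1 lies above 100 FPKM in every library, Cyba lies between 12.97 and 19.1 FPKM in MC38 and at or near 0 in MC38.T4, and the other 7 members stay below 0.3 FPKM in every library.

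No catalytic partner of p22phox reached the minimum for testing in either line. Cybb, which encodes the NOX2 subunit of phagocytes, was listed at 0 in all 10 libraries. Nox1, the catalytic subunit best known from colon epithelium, was above 0 in 9 of 10 libraries, at levels of 0.0437, 0.0241, 0, 0.0124 and 0.0338 FPKM in MC38 and 0.0101, 0.0099, 0.0543, 0.0129 and 0.0128 FPKM in MC38.T4. No whole numbers of fragments that give these values were found. Its ranges overlapped, with the highest single value in MC38.T4 replicate 3 and the only 0 in MC38 replicate 3.

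Nox4, which makes mainly hydrogen peroxide and is known from kidney and mesenchymal cells, was above 0 in 6 of 10 libraries. Its FPKM was 0.0279, 0.0074, 0, 0.0228 and 0.0270 in MC38 and 0, 0, 0.0134, 0 and 0.0158 in MC38.T4. The smallest whole numbers of fragments that give these values within 0.02 of a fragment, a tolerance set after the values were seen, were 12 in the 5 MC38 libraries and 4 in the 5 MC38.T4 libraries. The ranges of the lines overlapped, and with so few fragments a difference in Nox4 was not detectable at this depth.

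Nox3, the catalytic subunit of the inner ear, was also listed at 0 in all 10 libraries. The sum of the 4 catalytic genes whose products pair with p22phox (Cybb, Nox1, Nox3 and Nox4) lay between 0 and 0.0716 FPKM in MC38 and between 0.0099 and 0.0677 FPKM in MC38.T4. In MC38, where Cyba had a mean of 16.0 FPKM, this sum had a mean of 0.0398 ± 0.028 FPKM (SD, n = 5). The transcript of the shared membrane partner was thus measured in MC38 without a transcript of these 4 catalytic genes above 0.0437 FPKM in any MC38 library. In MC38.T4 their highest single value was 0.0543 FPKM. The DUOX enzymes, which do not need p22phox, were also low. Duox1 ranged from 0.0271 to 0.1058 FPKM in MC38 and from 0.0338 to 0.0777 FPKM in MC38.T4, and Duox2 stayed at or below 0.0198 FPKM.

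The cytosolic subunits of the phagocyte oxidase were low as well. Ncf1, the organiser that carries the cytosolic complex to the membrane, measured 0.0191, 0, 0, 0.0210 and 0 FPKM in MC38 and 0.0174, 0.0084, 0.0183, 0.0218 and 0.0108 FPKM in MC38.T4. It was above 0 in 2 MC38 and in 5 MC38.T4 libraries, with overlapping ranges and at most 2 fragments in a library by the smallest whole numbers. Noxa1, the activator that pairs with NOX1, was listed at 0 in all 10 libraries.

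Ncf4, which binds phosphoinositides on phagosomes and supports the NOX2 complex there, was the one cytosolic subunit whose lines did not overlap. Its FPKM was 0.0177, 0.0378, 0.0732, 0.0390 and 0.0173 in MC38 and 0.2267, 0.2949, 0.1531, 0.2433 and 0.2203 in MC38.T4. Every MC38.T4 library thus lay above every MC38 library. The means were 0.0370 ± 0.023 and 0.228 ± 0.051 FPKM (SD, n = 5 each), a ratio of 6.15 and a log2 difference of 0.24. Its values fell on whole fragments within 0.002 of a fragment, 1 to 4 per MC38 library (10 in all) and 9 to 19 per MC38.T4 library (65 in all). Even so its highest library lay below 0.3 FPKM, so Ncf4 was not among the tested genes.

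Rac1, a ubiquitous GTPase that also drives actin remodelling, was by far the most abundant member. Its FPKM was 106.6083, 110.6749, 111.2562, 109.5227 and 111.3467 in MC38 and 129.8996, 133.1772, 136.3762, 123.5332 and 128.7187 in MC38.T4. All 5 MC38.T4 libraries lay above all 5 MC38 libraries. The means were 109.9 ± 2.0 and 130.3 ± 4.8 FPKM (SD, n = 5 each), a ratio of 1.19 and a log2 difference of 0.24, and 72.3% of tested genes had a larger difference in either direction. Rac2, the form of blood cells, was above 0 in 3 of 10 libraries and at most 0.0164 FPKM, with 2 fragments in each line by the smallest whole numbers.

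Of the 9 members 2 were among the tested genes (86.0% of tested genes were called). Cyba was called lower, beside 42.9% of all tested genes, and Rac1 higher, beside 43.1%, and nothing is read from these calls because the set was chosen with this contrast known. The lines did not overlap for 3 members (Cyba, Ncf4 and Rac1), where 41.0% of the 26597 genes above 0 in some library and 77.4% of the tested genes did not overlap. Fitted with no filter, 3 members were called (Cyba lower, Ncf4 and Rac1 higher), where 47.8% of the 26597 genes were, and nothing is read from that either. In MC38 the levels ran from Rac1 through Cyba to Ncf4, and below Cyba the ranges of Ncf4, Nox1, Nox4, Ncf1 and Rac2 met their neighbours in the order. In MC38.T4 the order was Rac1, then Ncf4, then Nox1, Ncf1, Cyba, Nox4 and Rac2, and from Nox1 down the ranges met.

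The genes of the oxidase system outside the set were likewise split, with 5 above the filter and 8 below it in FPKM. Of 13 such genes 5 were tested, 4 rose and 1 fell, where 43.1% of all tested genes rose and 42.9% fell. The median log2 change was 0.49 against 0.001 over all tested genes. With only 5 genes tested, nothing is read from this count or this median. Cybc1, which encodes the chaperone EROS that the NOX2 and p22phox heterodimer needs to mature, fell from 30.0 ± 1.1 to 19.7 ± 0.49 FPKM (log2 difference -0.58, SE 0.03, limma adjusted p = 3.16e-10). Its 5 MC38 libraries lay between 28.8 and 31.0 FPKM and its 5 MC38.T4 libraries between 19.1 and 20.4. Poldip2, whose product binds p22phox and raises NOX4 activity, rose from 30.9 ± 0.41 to 39.5 ± 1.1 FPKM (limma adjusted p = 3.57e-08).

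Sh3pxd2a and Sh3pxd2b encode the scaffold proteins TKS5 and TKS4 of invadopodia, which are related to p47phox. Sh3pxd2b rose from 23.8 ± 1.9 to 43.2 ± 0.89 FPKM (limma adjusted p = 1.27e-10) and Sh3pxd2a from 22.2 ± 2.7 to 31.3 ± 1.3 FPKM (limma adjusted p = 4.87e-06). Both were highest within MC38 in replicate 1, at 27.1 and 26.5 FPKM, and in neither gene did the lines overlap. Rac3, the third Rac gene, rose from 3.40 ± 0.60 to 5.26 ± 0.28 FPKM (limma adjusted p = 2.11e-05). Rac1 made up 95.7% to 97.5% of the summed FPKM of Rac1, Rac2 and Rac3 in every library, and Rac3 made up 2.99% ± 0.47 (SD, n = 5) for MC38 and 3.89% ± 0.32 (SD, n = 5) for MC38.T4.

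The other 8 genes lay below the filter. Hvcn1, the proton channel that balances charge during the respiratory burst, had no overlap between the lines, at 0.352 ± 0.049 FPKM (SD, n = 5) for MC38 and 0.0688 ± 0.031 FPKM (SD, n = 5) for MC38.T4, and was called lower only when no filter was applied (limma adjusted p = 4.1e-06). Noxo1, the organiser of NOX1, ranged from 0.0642 to 0.1445 FPKM and from 0.0782 to 0.2244 FPKM, and the ranges of Nrros, a negative regulator of NOX2, overlapped too, at means of 0.102 and 0.110 FPKM. The DUOX maturation factor genes Duoxa1 and Duoxa2 reached at most 0.1102 and 0.0143 FPKM. With no filter Noxo1 (limma adjusted p = 0.255), Nrros (0.807) and Duoxa1 (0.164) did not pass.

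**Figure D2:**
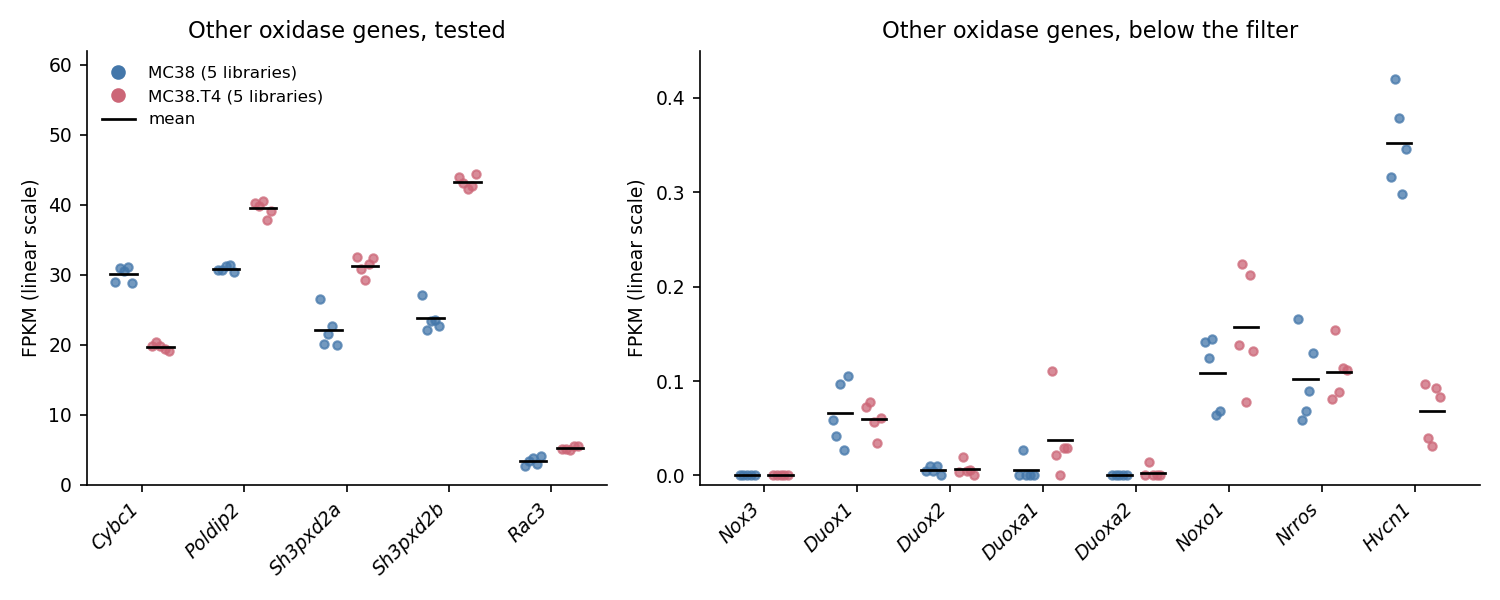
FPKM of 13 other NADPH oxidase genes in each of 5 MC38 and 5 MC38.T4 libraries (points) with the mean of each line (bars), on linear axes that start at or just below 0. Cybc1 is lower and Poldip2, Sh3pxd2a, Sh3pxd2b and Rac3 are higher in every MC38.T4 library, and of the 8 genes below the filter only Hvcn1 separates the lines.

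Phagocyte markers were examined beside these values because Cybb, Ncf1, Ncf4 and Rac2 are genes of blood cells. Of 20 phagocyte markers 18 lay below the filter. Adgre1 (F4/80) and S100a9 were listed at 0 in all 10 libraries, and Spi1 (PU.1) was at 0 in all 5 MC38.T4 libraries. Ptprc (CD45) lay between 0.0116 and 0.042 FPKM in MC38 and at most at 0.0064 in MC38.T4, and Csf1r at most at 0.007 in MC38 and between 0.0077 and 0.028 in MC38.T4. The summed level of the 20 markers ranged from 3.85 to 4.76 FPKM in MC38 and from 7.92 to 10.5 FPKM in MC38.T4. Without Itgb2 the sum of the other 19 ranged from 3.72 to 4.57 FPKM in MC38 and from 2.28 to 3.59 FPKM in MC38.T4, the opposite direction. Itgb2, the beta-2 integrin gene, rose from 0.211 ± 0.055 to 6.10 ± 0.57 FPKM (limma adjusted p = 8.35e-15) and was tested only because its MC38.T4 libraries passed the filter, while Cd68 fell from 3.10 to 2.21 FPKM (limma adjusted p = 0.003). The lines did not overlap for 6 of the 20 markers, where 41.0% of the 26597 genes above 0 in some library did not overlap. Nothing is read from this count. Itgb2, Itgax, Csf1r and Mpeg1 were higher in MC38.T4, and Ptprc and Lyz2 (0.805 and 0.237 FPKM) were lower. The part of blood cells in the level of Ncf4 was not tested. Of 9 lymphocyte markers 1 passed the filter (Lck) and of 8 endothelial markers none did. Below the filter, Pecam1 (0.0404 FPKM for MC38 against 0.5285 for MC38.T4) and Cdh5 (0.0053 against 0.0461) were higher in MC38.T4 with no overlap. Kdr was lower with no overlap (0.019 against 0.001 FPKM), and the other endothelial markers overlapped. Of 12 fibroblast and smooth muscle markers 5 passed (Pdgfra, Pdgfrb, Dcn, Col3a1 and Acta2), and all 5 rose. Pdgfrb and Acta2 were tested only because their MC38.T4 libraries passed the filter, so they had to rise. Over all tested genes 43.1% rose, and nothing is read from the count of these markers. The sum of all 12 ranged from 35.0 to 38.2 FPKM in MC38 and from 350.0 to 357.0 FPKM in MC38.T4. Col3a1 made up the largest part of that gap, averaging 6.45 FPKM for MC38 against 247.4 for MC38.T4. Below the filter, Col1a1 and Tagln were higher in MC38.T4 with no overlap and Fap was lower. Lum, Myh11 and Cnn1 overlapped, and Thy1 was listed at 0 throughout. Nox4 stayed low in both lines beside these markers.

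The 6 tested genes around Cyba did not share its near absence in MC38.T4. On mouse chromosome 8, in RefSeq gene order on GRCm38.p6, 9 of the 10 nearest protein-coding genes (5 on either side) were in the table. Of these 6 were tested, 2 rose and 4 fell, where 86.0% of all tested genes were called. Mvd, the mevalonate decarboxylase of cholesterol synthesis and the next gene on one side, rose from 3.87 ± 0.36 to 10.2 ± 0.90 FPKM (log2 difference 1.20, SE 0.06, limma adjusted p = 7.42e-11). Il17c, the next gene on the other side, was at or below 0.0746 FPKM in every library. Zc3h18, the nearest tested gene on that other side, fell from 38.0 ± 0.59 to 33.5 ± 2.1 FPKM (limma adjusted p = 0.000705).

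Farther out, Ctu2, which serves transfer RNA thiolation, rose from 5.65 ± 0.56 to 10.3 ± 0.67 FPKM (limma adjusted p = 7.41e-09). The mechanosensitive channel gene Piezo1 fell from 35.5 ± 2.5 to 20.8 ± 1.2 FPKM (limma adjusted p = 1.54e-09), the ubiquitin ligase gene Rnf166 from 15.4 ± 0.81 to 12.4 ± 0.32 FPKM (limma adjusted p = 3.85e-06) and Zfpm1, a cofactor of GATA factors, from 2.34 ± 0.21 to 1.68 ± 0.17 FPKM (limma adjusted p = 0.000107). Trhr2 and Snai3 lay below the filter, at no more than 0.0581 and 0.014 FPKM. Each of the 6 tested neighbours thus kept a mean above 1.6 FPKM in MC38.T4, where Cyba stood at 0.0067. Whether the counting used strand is not given in the sources used here, so reads of overlapping genes could not be told apart.

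**Figure D3:**
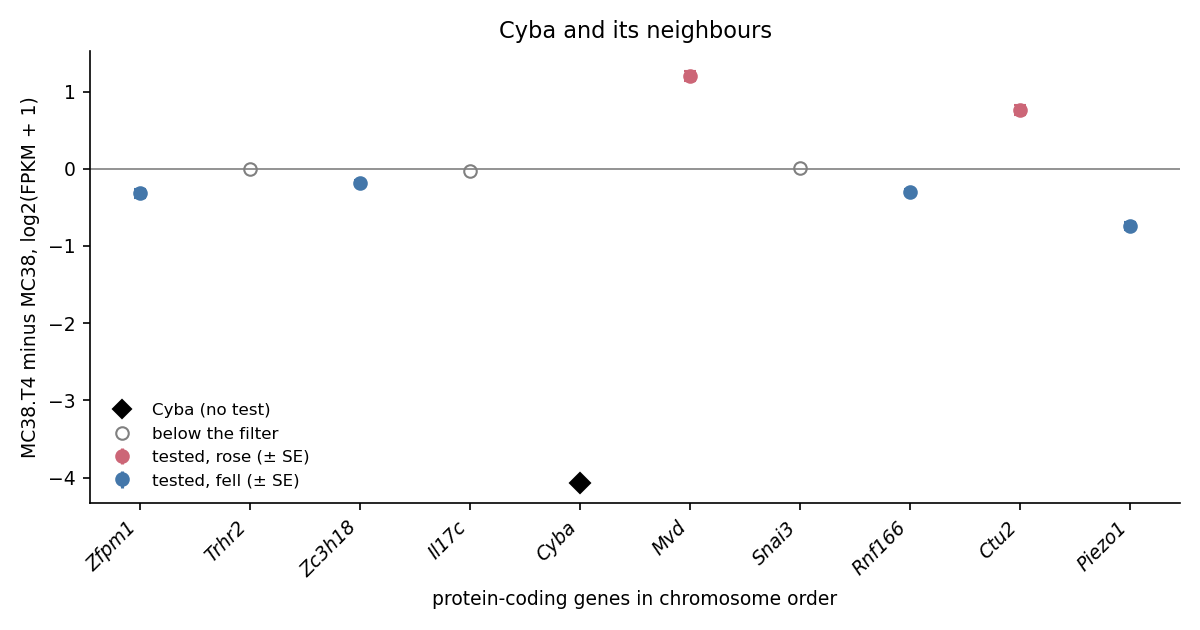
Difference between MC38.T4 and MC38 in mean log2(FPKM + 1) for Cyba (diamond, no test) and 9 neighbouring protein-coding genes in chromosome order, evenly spaced and not to genomic distance. Filled circles are tested genes with their SE, which is smaller than most symbols, and open circles are genes below the filter. Cyba lies at -4.07, while its neighbours lie between -0.75 and 1.20 in both directions.

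Few genes had the on and off pattern of Cyba. Of 25901 genes searched, which leaves out Gm and Rik models, 3 had a mean of at least 5 FPKM in MC38 and at most 0.1 FPKM in every MC38.T4 library, and 2 had the mirror pattern. Genes low in both lines could show neither pattern, and the limits were set with the values of Cyba known. With Gm and Rik models kept, 8806 genes had at least 5 FPKM in at least 5 of the 10 libraries. Besides Cyba, the genes off in MC38.T4 were the stress-induced transcription factor gene Atf3 (40.99 ± 1.8 FPKM in MC38, 0.0119 to 0.0615 FPKM in MC38.T4) and the cornified envelope gene Lce1l (9.21 ± 0.86 FPKM in MC38, listed at 0 in every MC38.T4 library). By Euclidean distance of log2(FPKM + 1) over the 10 libraries, the genes nearest to Cyba were Gnpda2 (distance 1.21), Mamdc2 (1.67), Lce1l (1.72), Klra2 (1.94) and Serpinb9b (1.96). Their MC38 means lay between 9.21 and 13.65 FPKM and none reached 1 FPKM in an MC38.T4 library, the highest being Klra2 at 0.924. All 5, like Cyba and Atf3, were tested only because their MC38 libraries passed the filter. Klra2 and Serpinb9b have close relatives in the genome. The handling of reads shared between copies is not given in the sources used here, for these genes, for Lce1l or for any other.

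Regulators of Rac went both ways. Of 31 exchange factor, GAP and GDI genes 20 were tested, 6 rose, 9 fell and 5 did not pass. The median log2 change was 0.01 against 0.001 over all tested genes, of which 86.0% were called. Racgap1, a GAP needed for cytokinesis, rose from 52.8 ± 1.3 to 130.2 ± 1.9 FPKM (limma adjusted p = 7.16e-15) and Abr, which deactivates Rac, from 7.12 ± 0.52 to 15.99 ± 0.40 FPKM (5.33e-12). Arhgdib, a GDI gene best known from blood cells, fell from 5.68 ± 0.51 to 1.71 ± 0.21 FPKM (3.43e-11), and Elmo1, a partner of DOCK exchange factors, from 2.17 ± 0.20 to 0.464 ± 0.094 FPKM (6.84e-11). Elmo1 was tested only because its MC38 libraries passed the filter.

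Of 18 Rac effector genes 13 were tested, 6 rose, 5 fell and 2 did not pass (median log2 change 0.03). Among all tested genes 86.0% were called. Baiap2, which links Rac to actin regulators, rose from 18.8 ± 1.4 to 40.0 ± 1.9 FPKM (limma adjusted p = 1.88e-11) and Cyfip1, the subunit of the WAVE complex that binds Rac, from 22.3 ± 0.71 to 39.4 ± 0.59 FPKM (3.00e-12). Abi1, another WAVE complex gene, fell from 91.4 ± 4.9 to 52.8 ± 2.0 FPKM (7.27e-11) and the scaffold gene Iqgap1 from 69.0 ± 3.3 to 43.1 ± 2.1 FPKM (4.76e-10). Cyfip1 and Abi1 belong to the same complex and went opposite ways. Because the largest rises and the largest falls of each list were named, nothing is read from that.

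Of 21 kinase genes upstream of the oxidase 15 were tested, 7 rose, 5 fell and 3 did not pass (median log2 change 0.07). The share called was 86.0% over all tested genes. Prkca, one of the protein kinase C genes whose products phosphorylate p47phox, had the largest change, from 6.34 ± 0.40 to 29.3 ± 0.97 FPKM (log2 difference 2.05, SE 0.04, limma adjusted p = 2.63e-15). Akt1 rose from 58.1 ± 0.65 to 129.2 ± 5.6 FPKM (1.10e-13). Pik3ca, a catalytic PI3-kinase gene, fell from 14.3 ± 1.0 to 9.34 ± 0.20 FPKM (9.48e-09) and Src from 57.9 ± 2.1 to 39.99 ± 1.5 FPKM (1.83e-09). These kinases were thus measured beside a p47phox transcript that never exceeded 0.0218 FPKM.

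Some other enzymes that make superoxide, hydrogen peroxide or nitric oxide lay far above every NOX gene in FPKM. Of 22 such genes 11 were tested, 4 rose, 6 fell and 1 did not pass (median log2 change -0.2). Calls covered 86.0% of all tested genes. Xdh, xanthine dehydrogenase and oxidase, rose from 15.99 ± 0.55 to 42.0 ± 1.1 FPKM (limma adjusted p = 1.95e-14), with all 5 MC38.T4 libraries above 40.9 and all 5 MC38 libraries below 17. Nos1, the neuronal nitric oxide synthase, rose from 0.0623 ± 0.014 to 1.39 ± 0.098 FPKM (1.83e-12), a ratio of 22.3, and passed the filter only through MC38.T4. The endoplasmic reticulum oxidase gene Ero1b fell from 7.01 ± 0.12 to 4.04 ± 0.26 FPKM (8.46e-10) and the monoamine oxidase gene Maoa from 18.5 ± 0.47 to 11.4 ± 0.28 FPKM (5.04e-11).

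Enzymes that remove superoxide and peroxide also went both ways. Of 16 genes 12 were tested, 6 rose, 5 fell and 1 did not pass (median log2 change 0.05). The cytosolic superoxide dismutase gene Sod1 rose from 299.2 ± 23 to 456.0 ± 9.2 FPKM (limma adjusted p = 1.03e-08) and the peroxiredoxin gene Prdx2 from 78.6 ± 6.6 to 125.0 ± 4.9 FPKM (1.17e-08). Prdx6 fell from 200.6 ± 8.3 to 110.7 ± 1.6 FPKM (2.92e-12) and Prdx5 from 78.3 ± 4.2 to 47.95 ± 1.9 FPKM (2.97e-10). Of the other tested peroxiredoxin genes Prdx1 and Prdx3 rose and Prdx4 fell. Over all tested genes 43.1% rose and 42.9% fell, so mixed directions did not set this family apart.

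**Figure D4:**
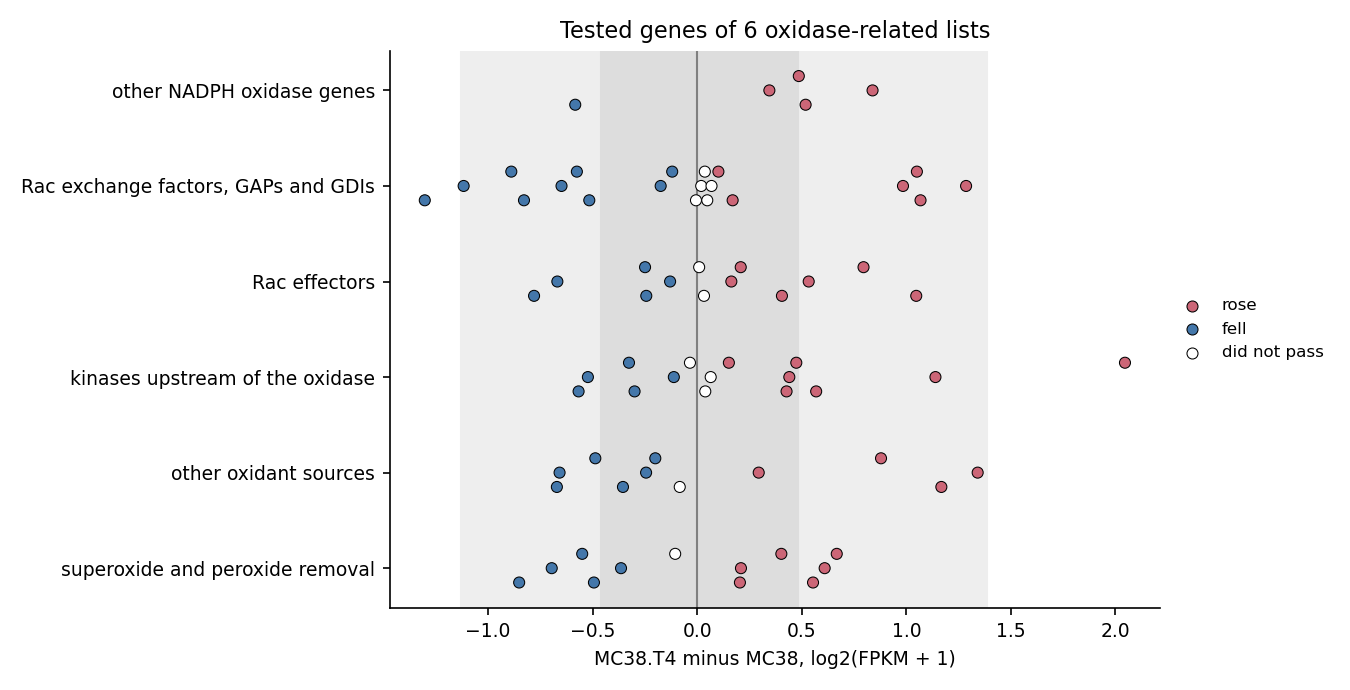
Difference between MC38.T4 and MC38 in mean log2(FPKM + 1) for each tested gene (points) of 6 gene lists around the NADPH oxidase, coloured by the limma call and spread vertically only for legibility. The dark and light grey bands hold the middle 50% (-0.46 to 0.48) and 90% (-1.13 to 1.38) of all 11110 tested genes. Each list has tested genes on both sides of 0, and Prkca (2.05) and Arhgdib (-1.30) lie outside the light band.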

How the data were processed

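Cultured cells gave polyA RNA for stranded libraries, per the labels' protocols. The authors deposited 1 table of FPKM for 54343 genes and 10 libraries. The submitters' processing notes name build GRCm39 and DESeq2, with no version or role, and no aligner, counter or annotation is named there. FPKM divides by gene length and library total, so read counts are not kept. Library totals were estimated from single-fragment steps with GENCODE vM21 exon lengths: between 47.88% and 54.45% of values from 0.02 to 0.5 FPKM were whole fragments within 0.05, so the annotation fits only in part. This estimate, its tolerances, the promoter motifs and the comparison of spread were chosen after seeing the values.

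Columns were mapped by library name. limma 3.58.1 in R 4.3.3 was run on log2(FPKM + 1), two-sided, with trend and robust moderation, a group term and Benjamini-Hochberg adjustment over 11110 genes. The fit was tested on simulated data. Python 3.11.15 with pandas 2.3.3 and SciPy 1.17.1 handled tables.

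The members, lists and tests were chosen with earlier results of these data known. Named genes are the members, other oxidase genes and tested Cyba neighbours (1 gene is not reported here), at most 2 rises and 2 falls per other list with no overlap between lines, the 5 genes nearest to Cyba, and genes off in MC38.T4. All 198 list symbols were in the table. Alternatives were another pseudocount, no filter, a minimum of 5 FPKM, TPM, quantile and median scaling, plain eBayes, a replicate block, leaving out each library and, chosen once the values were known, leaving out 2 together. No column was unused.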

Additional observations from a re-analysis of the deposited data

Results flagged for a closer look

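Values of 105 groups of 5 libraries were checked for a library far from the other 4, and 14 were found. Chance gives about 1 in 20, a rate that does not apply to 5 of them, where the other 4 libraries were at 0 and any value above 0 stands apart. Among the members, MC38.T4 replicate 3 stood out 3 times, with Cyba at 0.0335 FPKM and Rac2 at 0.0164 FPKM, where the other MC38.T4 libraries were at 0, and with Nox1 at 0.0543 FPKM, where the others lay between 0.0099 and 0.0129. Similar small values set apart Duox2 in MC38.T4 replicate 2 (0.0198 FPKM), Duoxa1 in MC38 replicate 2 (0.027) and in MC38.T4 replicate 1 (0.1102), Duoxa2 in MC38.T4 replicate 2 (0.0143), Snai3 in MC38.T4 replicate 2 (0.014) and Nos1 in MC38 replicate 4 (0.0874 FPKM, the others 0.0519 to 0.0589).

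At higher levels, MC38 replicate 1 was highest for Iqgap1 (74.8 FPKM, the others 67.1 to 68.7) and Prkca (7.02 FPKM, the others 6.04 to 6.31). MC38 replicate 5 was highest for Ctu2 (6.61 FPKM, the others 5.17 to 5.58). MC38.T4 replicate 1 was lowest for Abi1 (49.3 FPKM, the others 52.8 to 54.2) and highest for Sod1 (472.2 FPKM, the others 449.9 to 453.7). The calls of these 5 genes held without each library in turn, which their lack of overlap between the lines favoured.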

How the results depend on the processing

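The 37 tested genes named above outside the members and the marker lists kept their direction and their side of the threshold in 699 of 699 values under 19 alternatives, of which 1, leaving out MC38 replicate 1 and MC38.T4 replicate 4 together, was chosen after seeing the data. Many of these genes were named for a large change with no overlap between the lines, or passed the filter through 1 line only. Their stability was thus largely set by that choice and says little about other genes. A minimum of 5 FPKM gave no value for genes below it. With no filter, 2 other NADPH oxidase genes fell (Hvcn1 being added), 8 Rac effectors fell, 7 other oxidant sources rose and 2 members rose (Rac1 and Ncf4), because more genes were tested, and the share of calls that were higher went from 80.0% to 66.7%, from 54.5% to 42.9%, from 40.0% to 53.8% and from 50% to 66.7%. Without each library in turn, between 4721 and 4845 genes rose and between 4679 and 4779 fell. Scaling moved the balance more: 4476 genes rose and 5007 fell as TPM, 4562 and 5019 by quantile normalization, and 4620 and 4968 with equal medians. The even split of rises and falls thus depended on the scale. As TPM 4 Rac exchange factor, GAP and GDI genes rose and 9 fell. With the replicate block 4784 genes rose and 4750 fell, against 4790 and 4765, and it changed no call of the 37 genes. Under it 5 Rac exchange factor, GAP and GDI genes rose and 8 fell (6 and 9 without it), and 6 genes of superoxide and peroxide removal fell (5 without it). Same-numbered libraries did not deviate together (correlations from -0.129 to 0.142, and 2 of 5 MC38 libraries correlated best with their own number). The labels do not say what the numbers stand for, and this check cannot show that they pair nothing. The difference in Cyba was -7.24 with a pseudocount of 0.1 and -5.12 as TPM, and that in Ncf4 was 1.26 and 0.45. Depth limits all statements on Nox4, Ncf1 and Rac2, which rest on a few fragments, and Nox1 was as low in FPKM.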
